A study of Mus musculus with 93 samples.

Results

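The glutamate receptor and glutamate transporter genes examined here are 28 genes picked by symbol: 4 AMPA, 5 kainate and 7 NMDA receptor subunits, the delta subunit Grid1, 7 metabotropic receptors, the 3 vesicular transporters Slc17a6, Slc17a7 and Slc17a8, and the plasma membrane transporter Slc1a1. All 28 were found by Ensembl identifier among the 47643 genes counted in every mouse, and 27 of them passed the filter on low counts. They were measured by RNA-seq in 93 mice aged 8 months, from the left hemisphere of the brain. The classical laboratory strain was C57BL/6J (B6). The strains that descend from wild mice were PWK/PhJ (PWK), WSB/EiJ (WSB) and CAST/EiJ (CAST). Each strain had WT mice and APP/PS1 mice, hemizygous for the APP/PS1 transgenes, which had been moved from B6 into the other strains by repeated backcrossing. The promoter that drives the transgenes is not given in the sources used here. The WT mice numbered 11 in PWK and 12 in each other strain, and the APP/PS1 mice 10 in B6 and 12 in each other strain, with both sexes in every group.

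Glutamate carries most fast excitation in the brain. AMPA and kainate receptors open within moments of its release, NMDA receptors open only when the cell is already depolarized and let calcium in, and metabotropic receptors act through G proteins, many of them on the presynaptic terminal where they hold release back. The vesicular transporters load glutamate into synaptic vesicles, and plasma membrane transporters clear it. Loss of glutamatergic synapses and altered receptor levels are studied widely in amyloid models.

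The reads assigned to genes numbered from 53969802 to 106016200 in a mouse. The level of App in each APP/PS1 mouse was above that of every WT mouse of its strain. The defining neuronal markers Snap25, Syt1, Rbfox3, Map2 and Tubb3 summed to between 4779 and 5931 CPM (TMM-scaled read counts relative to library size) in all mice. The libraries of the wild-derived strains carry consecutive numbers that fall into 3 runs, and the B6 libraries have numbers of their own. A difference between B6 and another strain therefore cannot be told apart from a difference between sets of libraries, whereas the wild-derived strains can be set against one another within a run. The paper states that the strains went through behavioral testing one after another, PWK first, then WSB, CAST and B6, with harvest directly afterwards. Strain and time of testing and harvest therefore cannot be told apart in any pair of strains, also within a run. Differences are given on the log2 scale with their standard errors from edgeR's quasi-likelihood fit, and adjusted p-values are Benjamini-Hochberg values over the 23702 genes tested, with a threshold of 0.05.

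A pair of B6 mice stood apart in these genes. In B6 APP/PS1 Female replicate 2 and B6 WT Male replicate 5, 11 of the 27 genes lay more than 0.3 log2 units below the mean of the other mice of their group, while no other mouse had more than 3 such genes. The lowest values were those of genes with much annotated exon, with exceptions. Grin2b, with 24.84 kb of annotated exon, deviated by -0.85 and -0.79 in these 2 mice, Grin2a by -0.84 and -0.75, and Grm5 by -0.77 and -0.82. The 9 genes with at least 9 kb of exon had median deviations of -0.46 and -0.45, against -0.07 and -0.04 for the 18 shorter genes. Of the shorter genes, Grm3, with 3.049 kb, was at -0.39 and -0.50, Gria4 at -0.37 and -0.47, and Grm7 at -0.34 and -0.42. Grin1, with 9.7 kb, was at -0.004 and 0.07. A wider set was all genes with a positive mean log2 CPM. Among these, the median over 4.56 kb minus that under 2.18 kb was -0.39 and -0.51 on the log2 scale in these mice. The 91 other mice ranged from -0.16 to 0.16. The cause was not tested. Calls between strains that changed without these 2 mice are given below.

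Levels can be compared between genes only per length, so CPM were divided by the kb of annotated exon. In WT mice the vesicular transporter Slc17a7 (VGLUT1), typical of cortical and hippocampal excitatory neurons, was the highest of the 28 genes, with strain means between 147.8 and 159.2 CPM per kb. The AMPA subunit Gria1 came next, at 80.6 to 92.4 CPM per kb, followed by Gria2 at 42.5 to 46.3 CPM per kb. Gria4, the kainate subunit Grik5 and the obligatory NMDA subunit Grin1 followed, with strain means of 31.8 to 38.1, 33.8 to 34.3 and 32.3 to 34.6 CPM per kb, and their order differed between strains. At the low end stood Slc17a8 (VGLUT3), at 1.04 to 1.44 CPM per kb, and the NMDA subunit Grin3b, at 0.242 to 0.334 CPM per kb. Grm6, the metabotropic receptor of retinal bipolar cells, was all but absent, with strain means between 0.00216 and 0.00409 CPM per kb, and was not tested. The exons of 15 of the 28 genes overlap those of another gene in the annotation, 9 of them on the opposite strand. Grin3b, which overlaps Tmem259, and Slc1a1, which overlaps 4430402I18Rik, are the most exposed, and their levels are uncertain for that reason.

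**Figure D1:**
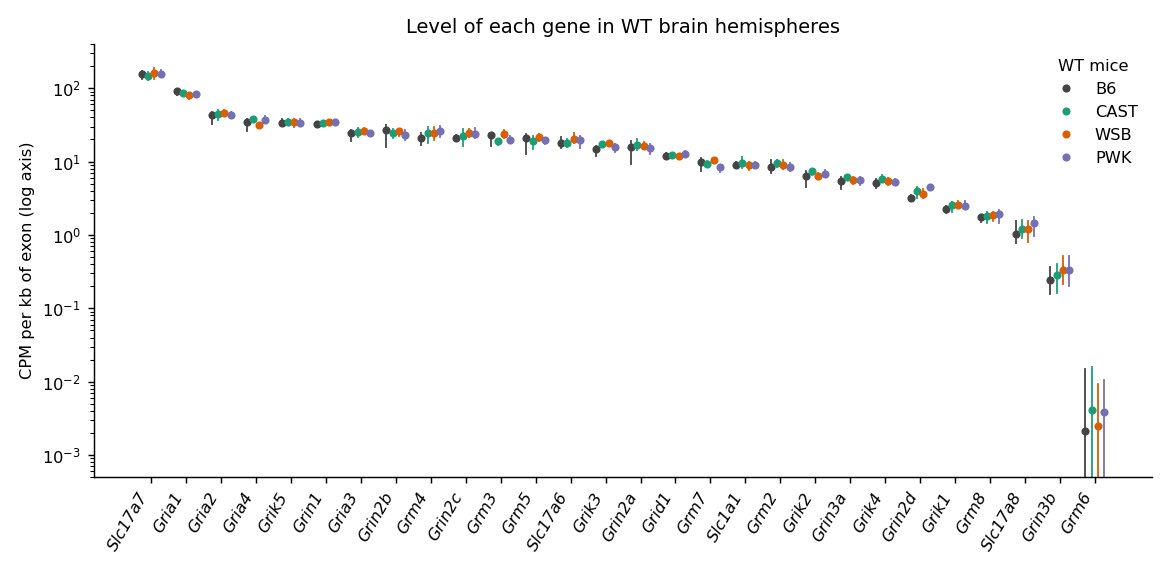
Level of each of the 28 genes in WT mice of B6, CAST, WSB and PWK in CPM per kb of exon on a log axis, with points for strain means and lines from the lowest to the highest mouse, cut off at the foot of the axis for Grm6. The levels span from Slc17a7, at about 154 CPM per kb over the strains, to Grm6, and within a gene the strains lie close together.

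The first question was whether glutamate receptor and transporter transcripts differ between strains without any transgene. They did, in many genes but by little. Over the WT mice of CAST, WSB and PWK 17 of 27 genes differed by the F test (74.1% of all genes), and over those of the 4 strains 22 of 27 did (84.5%). In pairs of strains, 13 genes passed for CAST against B6 (61.4% of all genes), 15 for PWK against B6 (59.2%), 13 for WSB against B6 (47.5%), 10 for CAST against PWK (54.8%), 13 for CAST against WSB (54.2%) and 10 for WSB against PWK (54.5%), so the number of calls is close to or below that of genes at large. The differences were small. Their median absolute difference was between 0.08 and 0.13 in the 6 pairs of strains, against 0.20 to 0.27 for all genes. Only Grin2d in PWK against B6 differed by more than 0.5, where 32.4% of all genes did. For the other pairs this share was 32.6% in CAST and 23.0% in WSB against B6, 30.6% in CAST against PWK, 30.2% in CAST against WSB and 31.0% in WSB against PWK, each with 0 of the 27 genes. The ranges of the mice failed to overlap for 5 genes in all, given below, and for 0 in CAST against B6 (15.3% of all genes) or PWK (14.3%). The sum over the 28 genes was 5179 ± 295 CPM in B6 (SD, n = 12), 5215 ± 221 in CAST (SD, n = 12), 5303 ± 208 in WSB (SD, n = 12) and 5113 ± 167 in PWK (SD, n = 11), ranges that overlap. Here and below, fewer cells of a type and less RNA per cell cannot be told apart.

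**Figure D2:**
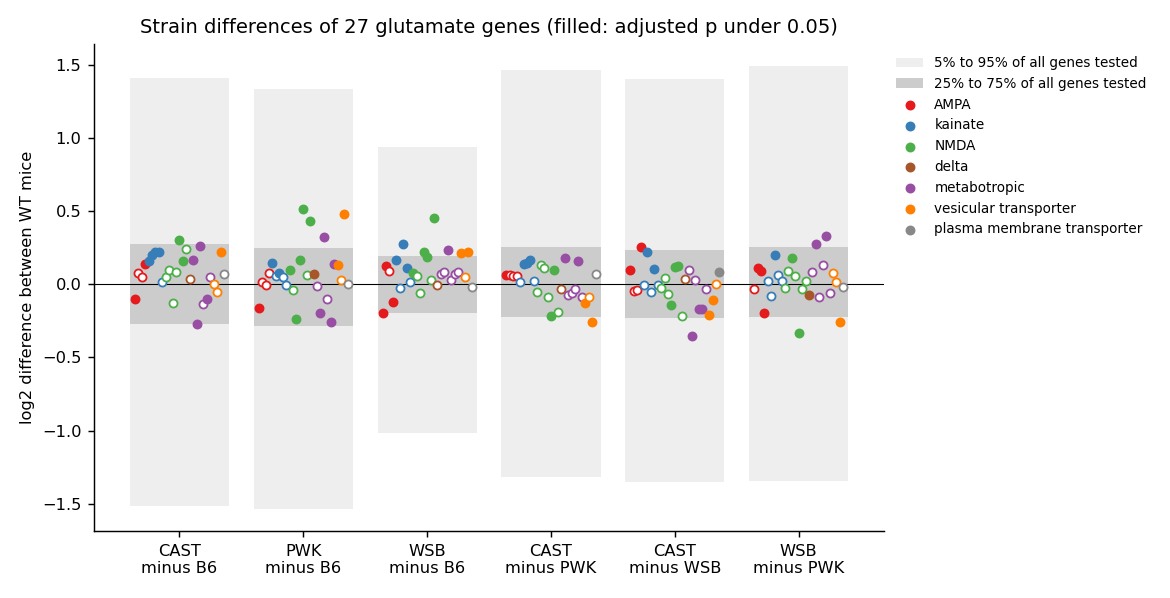
Log2 differences between WT mice of each pair of strains for 27 glutamate genes, coloured by class and filled where the adjusted p was under 0.05, over bands that hold the middle 50% and 90% of all 23702 genes. The points lie between -0.35, Grm3 in CAST against WSB, and 0.52, Grin2d in PWK against B6.

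The metabotropic receptors held the 2 genes with the smallest p over CAST, WSB and PWK, Grm7 and Grm3. Grm7 encodes mGluR7, a presynaptic receptor of low affinity that restrains release, and it lies at chr6:110645581-111567230 on the plus strand of GRCm38. The WT mice had between 42.9 and 52.9 CPM in PWK (median 49.0), 49.1 and 60.7 in CAST (median 55.6), 44.2 and 65.1 in B6 (median 59.3), and 58.1 and 65.4 in WSB (median 61.2). Every WT WSB mouse was thus above every WT PWK mouse, which holds for 15.0% of all genes, and Grm7 was the only one of the 27 to show it in that pair. WSB exceeded PWK by 0.33 ± 0.036 (SE; edgeR, adjusted p = 2.89e-13) and CAST by 0.17 ± 0.035 (SE; edgeR, adjusted p = 1.83e-05). In the 3 runs of libraries WSB minus PWK was 0.39, 0.37 and 0.28. Grm7 was also lower than B6 in PWK, by -0.26, and in CAST, by -0.10, and CAST exceeded PWK by 0.16 (edgeR, adjusted p = 1.68e-09, 0.011 and 0.000108).

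Grm3 encodes mGluR3, a receptor found on astrocytes as well as neurons. It lies at chr5:9485541-9725170 on the minus strand, the highest WT CAST mouse had 62.6 CPM and the lowest WT WSB mouse 64.7 CPM, so that these strains did not overlap (14.4% of all genes). The medians were 57.3 CPM in CAST, 60.1 in PWK, 71.8 in B6 and 71.9 in WSB. CAST and PWK were low and B6 and WSB high, with CAST below WSB by -0.35 ± 0.046 (SE; edgeR, adjusted p = 2.31e-10) and WSB above PWK by 0.28 ± 0.047 (SE; edgeR, adjusted p = 3.45e-07). CAST minus PWK was -0.07 (edgeR, adjusted p = 0.192) and WSB minus B6 0.08 (edgeR, adjusted p = 0.136), neither of which passed. Against B6, Grm3 was at -0.27 in CAST and -0.20 in PWK (edgeR, adjusted p = 3.67e-07 and 0.000206). In the runs of libraries CAST minus WSB was -0.34, -0.42 and -0.29. The share of read pairs aligned to more than 1 place split the strains in the same way. It was 8.91% to 10.6% in B6 and WSB mice and 11.1% to 12.7% in CAST and PWK mice. The part of this share in the strain differences was not tested. Because Grm3 is partly astrocytic, the astrocyte markers were set beside it: of Aldh1l1, Aqp4, Gfap, Gja1 and S100b, 4 of 5 differed between CAST and WSB, 3 higher in CAST and Aldh1l1 lower, and their summed level ran from 768 to 997 CPM in CAST and from 603 to 812 CPM in WSB. Their part in the Grm3 difference was not tested.

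Among the other metabotropic receptors, Grm4, a presynaptic receptor strong in cerebellar granule cells, was higher in each wild-derived strain than in B6. It had between 102 and 148 CPM in WT B6 (median 118), 106 and 179 in CAST (median 146), 118 and 176 in WSB (median 145) and 127 and 182 in PWK (median 155), so the groups overlapped. The differences from B6 were 0.26 in CAST, 0.24 in WSB and 0.32 in PWK (edgeR, adjusted p = 0.000238, 0.00145 and 1.68e-05). The granule cell gene Gabra6 moved the same way, by 0.54, 0.45 and 0.90, as did Cbln1, by 0.29, 0.29 and 0.57, while the Purkinje cell gene Pcp2 went the other way, at -0.22, -0.13 and -0.23. The 5 cerebellum markers summed to between 398 and 552 CPM in B6 and between 636 and 1023 CPM in PWK without overlap, and to between 347 and 692 CPM in CAST and 478 and 732 in WSB, both overlapping B6. Their part in the Grm4 differences was not tested. Grm2, a presynaptic autoreceptor, was higher in CAST than in B6 by 0.17 and than in PWK by 0.18 (edgeR, adjusted p = 0.00445 and 0.00292). Grm5, the postsynaptic group I receptor, passed with all mice only between CAST and WSB, by -0.17 (edgeR, adjusted p = 0.0175). Without the 2 B6 mice that stand apart it was also lower than B6 in CAST, by 0.19 in size (edgeR, adjusted p = 0.000331), and in PWK, by 0.16 in size (edgeR, adjusted p = 0.00405), and higher in WSB than in PWK, by 0.13 (edgeR, adjusted p = 0.0126). Grm8 passed only for PWK against B6, at 0.14 (edgeR, adjusted p = 0.00385).

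Among NMDA receptor subunits the widest difference was that of Grin2d (GluN2D), a subunit that in the adult forebrain is found mainly in interneurons and that gives slow, weakly magnesium-blocked currents. It lies at chr7:45831883-45878378 on the minus strand. Its WT mice spanned 19.3 to 23.7 CPM in B6 (median 21.0), 21.0 to 27.8 in WSB (median 24.1), 21.5 to 30.0 in CAST (median 26.4) and 27.6 to 32.4 in PWK (median 30.5). No B6 mouse reached any PWK mouse, which is so for 15.3% of all genes, and WSB and CAST lay between. PWK exceeded B6 by 0.52 ± 0.043 (SE; edgeR, adjusted p = 1.24e-18), WSB by 0.33 ± 0.043 (SE; edgeR, adjusted p = 1.66e-10) and CAST by 0.22 ± 0.043 (SE; edgeR, adjusted p = 1.2e-05). CAST exceeded B6 by 0.30 and WSB by 0.12, and WSB exceeded B6 by 0.18 (edgeR, adjusted p = 1.98e-09, 0.0145 and 0.000193). In the runs of libraries WSB minus PWK was -0.28, -0.41 and -0.24. Among Grin2 subunits per kb, its share was 4.80% ± 0.68 in B6 (SD, n = 12) and 6.85% ± 0.51 in PWK (SD, n = 11). The inhibitory neuron markers Gad1 and Slc32a1 did not pass for PWK against B6, at 0.04 and -0.01, and Gad2 was higher by 0.09. Regional markers differed between these strains. The thalamus markers Tcf7l2, Rora and Lef1 summed to 304 to 381 CPM in WT PWK and 188 to 290 in WT B6, without overlap, as for the cerebellum markers given above. Striatum markers, at 223 to 302 and 264 to 380 CPM, and brainstem and spinal markers, at 22.8 to 94.2 and 8.61 to 96.3 CPM, overlapped. The part of these markers in the Grin2d difference was not tested.

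The other NMDA subunits differed less. Grin2b, the subunit prominent in early life and in forebrain synapses, was lower in PWK than in B6 by -0.23 and than in WSB by 0.18 in size (edgeR, adjusted p = 0.00173 and 0.0202), and Grin2a, its partner in mature synapses, passed in no pair with all mice. Without the 2 B6 mice that stand apart, Grin2b passed for CAST against B6, at -0.18, and Grin2a for CAST against PWK, at 0.13 (edgeR, adjusted p = 0.00151 and 0.0235). The ratio of Grin2a to Grin2b per kb was 0.59 ± 0.02 in B6 (SD, n = 12), 0.64 ± 0.02 in WSB (SD, n = 12), 0.68 ± 0.04 in PWK (SD, n = 11) and 0.69 ± 0.04 in CAST (SD, n = 12). The WT B6 mice lay between 0.553 and 0.638, overlapping the other strains. The cerebellar subunit Grin2c was higher than B6 in WSB by 0.22 and in PWK by 0.17 (edgeR, adjusted p = 8.53e-05 and 0.00277) beside the cerebellum markers given above, and lower in CAST than in WSB, at -0.14 (edgeR, adjusted p = 0.0127). Grin1, required in every NMDA receptor, was higher than B6 in PWK by 0.10 and in WSB by 0.08. Grin3a, which damps calcium entry, was highest in CAST, above B6 by 0.16, WSB by 0.13 and PWK by 0.10 (edgeR, adjusted p = 0.000304, 0.00437 and 0.0325), the last of which was lost without PWK WT Female replicate 4 or 5 (edgeR, adjusted p = 0.061 and 0.0922). Grin3b, at about 1 CPM, was higher than B6 in PWK by 0.43 and in WSB by 0.46 (edgeR, adjusted p = 0.0178 and 0.0146), and the first call was lost without PWK WT Female replicate 2, at 0.31 (edgeR, adjusted p = 0.0991).

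Windows before the RefSeq starts of the 3 genes with the smallest p over CAST, WSB and PWK are shown to place them in the genome. They are RefSeq sequences of GRCm38.p6, the B6 reference, so they do not show what CAST, WSB or PWK carry. Each holds the 250 bases before a RefSeq transcript start, which for Grin2d lies inside the wider gene span of GENCODE given above, so that its window is within that span and not upstream of it. Capitals mark a GC box, GGGCGG, searched on both strands. The search found 1 in Grm7, 1 in Grm3 and 0 in Grin2d. Of the 32841 such windows, 32.7% hold this motif. Of the 24 windows of the 19 genes of the list with an entry, 12 hold it, and they belong to 11 genes. The cAMP response element TGACGTCA was in 1.55% of windows and in none of the 19 genes, and TATAAA in 12.4% of windows and in that of Grin3b.
Grm7, chr6:110645262-110645511, plus strand: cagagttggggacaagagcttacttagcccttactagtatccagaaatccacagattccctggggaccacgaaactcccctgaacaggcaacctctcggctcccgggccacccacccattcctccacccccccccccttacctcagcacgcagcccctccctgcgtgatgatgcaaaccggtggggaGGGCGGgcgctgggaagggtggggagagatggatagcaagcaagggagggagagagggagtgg
Grm3, chr5:9725353-9725602, minus strand: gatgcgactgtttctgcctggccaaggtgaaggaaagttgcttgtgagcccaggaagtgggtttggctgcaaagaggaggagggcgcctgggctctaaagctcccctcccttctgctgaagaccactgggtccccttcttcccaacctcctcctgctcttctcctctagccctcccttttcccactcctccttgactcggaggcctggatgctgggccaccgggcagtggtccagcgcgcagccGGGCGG
Grin2d, chr7:45866682-45866931, minus strand: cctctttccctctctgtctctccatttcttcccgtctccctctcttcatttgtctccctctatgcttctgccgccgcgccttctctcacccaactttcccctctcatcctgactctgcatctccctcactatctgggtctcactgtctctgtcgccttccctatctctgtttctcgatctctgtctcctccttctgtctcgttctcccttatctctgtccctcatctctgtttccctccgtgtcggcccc

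Among AMPA subunits, Gria1 encodes GluA1, whose delivery to synapses accompanies long-term potentiation. It was highest in B6, with between 488 and 587 CPM (median 568.5), against 487 to 559 in CAST (median 517), 466.2 to 526.5 in PWK (median 491) and 436 to 517 in WSB (median 495). The B6 median lay above those of the other strains, although the ranges overlapped. The differences from B6 were -0.10 in CAST, -0.17 in PWK and -0.20 in WSB (edgeR, adjusted p = 0.000151, 8.33e-09 and 1.84e-11). CAST exceeded WSB by 0.10 and PWK by 0.06 (edgeR, adjusted p = 0.000303 and 0.0201), and the second was lost without PWK WT Female replicate 3 (edgeR, adjusted p = 0.0756). Gria4, the fast-gating GluA4, was lowest in WSB. Its WT mice spanned 185 to 212 CPM in WSB (median 201) and 222 to 256 in CAST (median 242), again without overlap (14.4% of all genes), with 209 to 264 in PWK (median 231) and 163 to 237 in B6 (median 225). CAST exceeded WSB by 0.26 ± 0.039 (SE; edgeR, adjusted p = 1.82e-08), and WSB minus PWK was -0.20 ± 0.04 (SE; edgeR, adjusted p = 1.27e-05). In the runs of libraries CAST minus WSB was 0.26, 0.22 and 0.35. Against B6, Gria4 was at 0.14 in CAST and -0.12 in WSB (edgeR, adjusted p = 0.00163 and 0.0072). Per kb, Gria1 made up 47.7% ± 1.62 of AMPA subunit transcript in B6 (SD, n = 12) and between 43.6% and 44.3% on average in the other strains. Gria2, whose edited form keeps calcium out, was higher in WSB than in B6 by 0.12 and than in PWK by 0.11 (edgeR, adjusted p = 0.0174 and 0.0351), and Gria3 in WSB than in PWK by 0.09 (edgeR, adjusted p = 0.0468). The WSB and PWK calls of Gria2 and Gria3 are marginal: without PWK WT Female replicate 1 the adjusted p was 0.0703 and 0.0832, without replicate 2 0.0641 and 0.0855, and without replicate 5 0.0546 and 0.0605, and that of Gria3 was 0.0643 without replicate 3 (edgeR).

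Of the kainate subunits, 4 of 5 differed between strains. Grik3 (GluK3), a presynaptic subunit of low glutamate affinity, had between 106 and 147 CPM in WT B6 (median 136), 121 and 156 in PWK (median 141), 144 and 165 in CAST (median 159) and 151 and 172 in WSB (median 164). All WSB mice were above all B6 mice (8.24% of all genes). Grik3 was higher than B6 in WSB by 0.28 ± 0.032 and in CAST by 0.22 ± 0.032 (SE; edgeR, adjusted p = 4.2e-12 and 4.03e-09). PWK was below WSB by 0.20 in size and below CAST by 0.14 in size (edgeR, adjusted p = 2.11e-07 and 0.000131). PWK was above B6 by 0.08 (edgeR, adjusted p = 0.031), a call lost without the 2 B6 mice that stand apart, at 0.05 (edgeR, adjusted p = 0.113), and without PWK WT Female replicate 1 or replicate 4 (edgeR, adjusted p = 0.0623 and 0.0684).

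Grik2 and Grik4 were highest in CAST. Grik2 (GluK2), a principal low-affinity subunit, spanned 87.9 to 106 CPM in CAST (median 96.5), 84.1 to 102 in PWK (median 87.9), 78.7 to 91.2 in WSB (median 83.0) and 59.7 to 97.0 in B6 (median 87.6). Grik4 (GluK4), a high-affinity subunit that must pair with another, spanned 33.0 to 38.7 CPM in CAST (median 34.4), 28.2 to 35.9 in WSB (median 32.5), 28.8 to 34.1 in PWK (median 30.7) and 25.8 to 34.8 in B6 (median 30.0). CAST exceeded WSB by 0.22 for Grik2 and by 0.10 for Grik4 (edgeR, adjusted p = 1.82e-06 and 0.0111), and it exceeded PWK by 0.14 and 0.17 (edgeR, adjusted p = 0.0027 and 6.19e-05). CAST also exceeded B6, by 0.20 for Grik2 and 0.22 for Grik4, and WSB exceeded B6 by 0.11 for Grik4 (edgeR, adjusted p = 1.46e-05, 1.49e-07 and 0.00596). Without the 2 B6 mice Grik2 was also lower in WSB than in B6, at -0.07, and than in PWK, at -0.08 (edgeR, adjusted p = 0.0316 and 0.00632). Grik1 was lower in B6 than in the other strains, which exceeded it by 0.14 to 0.16. Grik5 (GluK5), the common high-affinity partner, did not pass in any pair, and every 95% interval of its difference lay between -0.08 and 0.10.

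**Figure D3:**
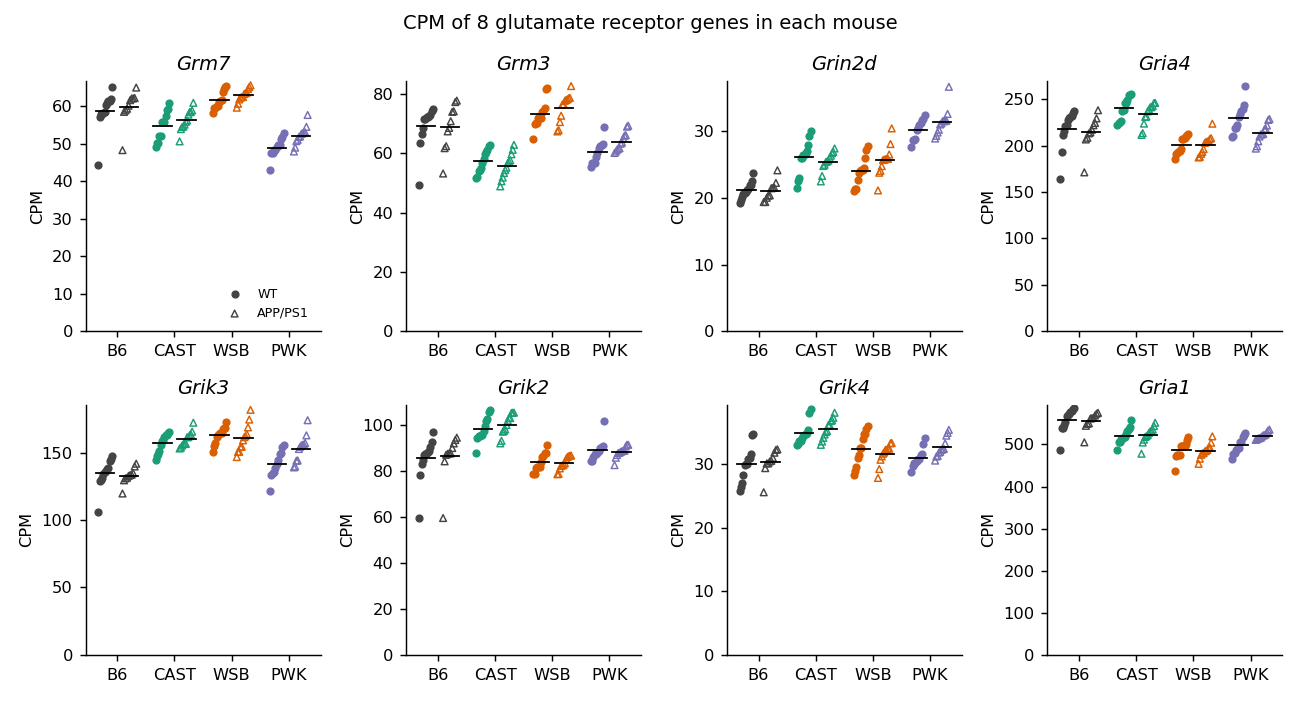
CPM of 8 receptor genes in each mouse, filled circles for WT and open triangles for APP/PS1, with a line at the mean of each group. Grm7 is lowest in PWK, Grm3 is lower in CAST and PWK, Grin2d is highest in PWK and lowest in B6, Gria4 is lowest in WSB, and WT and APP/PS1 mice of a strain overlap in every panel.

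The delta subunit Grid1, a synaptic organizer that binds cerebellin, differed little, with strain medians from 70.4 to 73.6 CPM. Its calls for PWK, above B6 by 0.07 and above WSB by 0.07 in size, were marginal (edgeR, adjusted p = 0.027 and 0.0196), and without PWK WT Female replicate 1 the first had an adjusted p of 0.0508 (edgeR).

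Of the transporters, Slc17a7 spanned 714 to 928 CPM in WT B6 (median 843), 706 to 895 in CAST (median 812), 773 to 943 in PWK (median 834) and 729 to 1020.05 in WSB (median 851), and only CAST against WSB passed, at -0.11 (edgeR, adjusted p = 0.0333). Slc17a6 (VGLUT2), the transporter of thalamus and brainstem, was higher in WSB than in B6 by 0.21 and than in CAST by 0.21 in size (edgeR, adjusted p = 0.000669 and 0.000601). Slc17a6 in PWK exceeded B6 by 0.13 and CAST by 0.13 in size, calls lost without PWK WT Female replicate 2 (edgeR, adjusted p = 0.089 and 0.103). Beside it, the 3 thalamus markers Tcf7l2, Rora and Lef1 were at 0.23, 0.29 and -0.18 in WSB against B6 and at 0.18, 0.34 and -0.09 in CAST against B6, and summed to 188 to 290.3 CPM in B6, 277 to 327 in WSB and 264 to 351 in CAST. The brainstem and spinal markers Hoxb5 and Slc6a5 were at -1.77 and -0.75 in WSB against B6 (edgeR, adjusted p = 0.0124 and 0.0276). Their part in the Slc17a6 difference was not tested. Slc17a8, found in scattered interneurons and serotonin neurons, was low but highest in PWK, with between 4.53 and 8.29 CPM (median 6.97) against 3.67 to 7.28 in B6 (median 4.87), and PWK exceeded B6 by 0.48 ± 0.094 (SE; edgeR, adjusted p = 7.37e-06). Slc17a8 in PWK also exceeded CAST and WSB, by 0.26 in size each, and CAST and WSB exceeded B6 by 0.22 each (edgeR, adjusted p = 0.015, 0.0144, 0.0321 and 0.0436), the last lost without the 2 B6 mice that stand apart (edgeR, adjusted p = 0.0574). Slc1a1 (EAAC1), the neuronal uptake carrier, passed with all mice for CAST against WSB alone, by 0.09 (edgeR, adjusted p = 0.0287), and without the 2 B6 mice also for CAST against B6, by 0.08 (edgeR, adjusted p = 0.0481).

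Within the 3 runs of libraries, the sign was the same in all 3 for 8 of the 10 genes called between CAST and PWK, for 12 of 13 between CAST and WSB and for 9 of 10 between WSB and PWK. The exceptions were Slc17a8 and Slc17a6 in CAST minus PWK, which reached 0.02 in a run, Grin2d in CAST minus WSB, at 0.20, 0.16 and -0.03, and Slc17a8 in WSB minus PWK, at 0.04, -0.39 and -0.38. Beside the B6 comparisons, oligodendrocyte markers were lower in the wild-derived strains, with Mbp at -0.56 in CAST, -0.60 in WSB and -0.62 in PWK. Their part in the receptor differences was not tested. Without the B6 mice that stand apart, 16 genes passed for CAST against B6 (60.8% of all genes), 15 for PWK against B6 (59.3%) and 13 for WSB against B6 (45.8%), with 11 for CAST against PWK (57.1%), 12 for WSB against PWK (56.8%) and 21 by the F test over CAST, WSB and PWK (76.2%). Females and males of the WT groups passed as differing in 0 of the 27 genes by edgeR and by DESeq2 (0.456% of all genes by edgeR), with 3 at an unadjusted p under 0.05 (12.0% of all genes).

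The second question was whether the APP/PS1 transgenes change these transcripts, and whether they do so differently between strains. In no strain did any of the 27 genes pass, while 0.224% of all genes did in B6, 0.375% in WSB, 0.658% in CAST and 2.04% in PWK. At an unadjusted p under 0.05 there were 10 of 27 in PWK (12.0% of all genes), 2 in WSB (7.70%), 1 in CAST (7.80%) and 1 in B6 (5.61%), and DESeq2 also called 0 in each strain. Averaged over the strains 0 passed (2.27% of all genes), with 4 at an unadjusted p under 0.05 (11.5%). The intervals were narrow. The 95% interval lay within 0.20 of no change for 24 of 27 genes in B6, for 25 in both CAST and WSB, and for 22 in PWK. The response did not pass as differing between strains for any of the genes (0.473% of all genes; smallest adjusted p = 0.363, Slc17a7, edgeR), nor as differing between sexes (0.00422% of all genes). At an unadjusted p under 0.05 there were 5 genes (8.63% of all genes) and 7 genes (7.08%), and DESeq2 called 0 in both. Without the 2 B6 mice the 7 genes for the sexes were 3 (8.68%). Microglial and astrocytic genes did respond in the same mice, with Cx3cr1 higher by 0.17 to 0.34 and Gfap by 0.36 to 0.51 in the 4 strains.

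**Figure D4:**
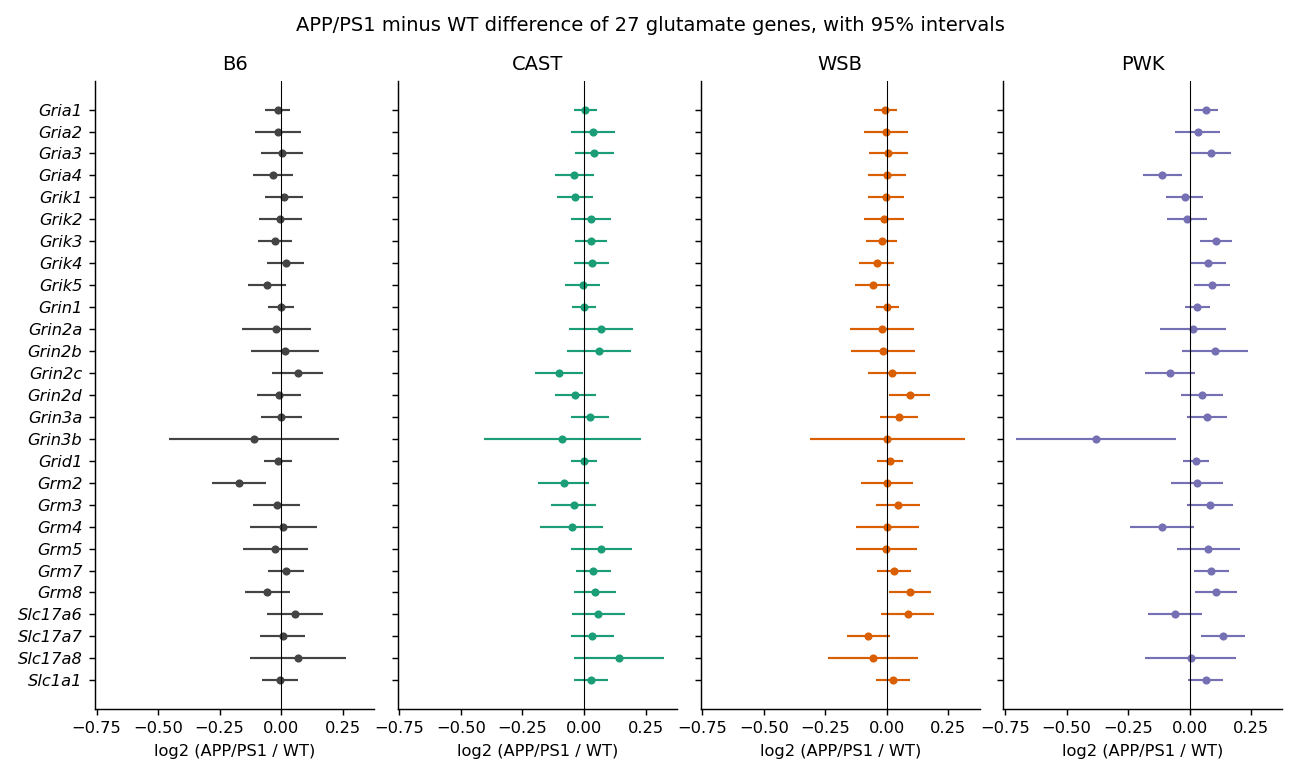
Log2 difference between APP/PS1 and WT mice for 27 genes in B6, CAST, WSB and PWK, with points for the fitted difference and lines for its 95% interval. In PWK 20 of 27 points lie above 0 and the widest intervals belong to Grin3b in every strain.

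PWK came nearest to a response. The paper states that PWK APP/PS1 mice were housed singly because of aggression, at a younger age than the other mice. A difference due to the transgenes and one due to housing therefore cannot be told apart in PWK, here or elsewhere in the text. There 20 of 27 genes were higher in APP/PS1 mice, with a median of 0.05. Grik3 had 121 to 156 CPM in WT mice (median 141) and 139 to 174 in APP/PS1 mice (median 155), a difference of 0.11 ± 0.033 that did not pass (SE; edgeR, adjusted p = 0.0756). Slc17a7 had 773 to 943 CPM in WT mice (median 834) and 837 to 1132 in APP/PS1 mice (median 923), and the difference was 0.14 ± 0.045 (SE; edgeR, adjusted p = 0.105). Both genes had groups that overlapped. Gria4 lay the other way, with 209 to 264 CPM in WT mice (median 231) and 197 to 228 in APP/PS1 mice (median 212), a difference of -0.11 ± 0.04 (SE; edgeR, adjusted p = 0.165). Once the 2 B6 mice that stand apart were left out, the differences in PWK stayed at 0.11 for Grik3 and -0.11 for Gria4 while their standard errors fell to 0.030 and 0.032, and both passed (edgeR, adjusted p = 0.0291 and 0.0383), 2 of 27 where 2.62% of all genes did. No PWK mouse was left out there, and the spread is shared by all groups. Gria4, at -0.37 and -0.47, and Grik3, at -0.14 and -0.32, lay below their group means in the mice left out. The 2 calls are therefore not separate evidence from PWK mice. A model of the PWK mice alone gave adjusted p-values of 0.142 for Grik3 and 0.0889 for Gria4 (edgeR). In the runs of libraries the Grik3 difference was 0.25, 0.10 and 0.05 and that of Gria4 was -0.28, -0.05 and -0.05. Only in PWK males, fitted as a contrast of their own, did any of the genes pass within a sex, Grik3 at 0.20 ± 0.045 (SE; edgeR, adjusted p = 0.00813; 0.675% of all genes), and whether PWK males and females differ was not tested.

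Regional markers moved beside the PWK values. The 7 genes lower in APP/PS1 mice of PWK were Grin3b, at -0.38, Gria4 and Grm4, at -0.11 each, Grin2c, at -0.08, Slc17a6, at -0.06, Grik1, at -0.02, and Grik2, at -0.01. Grin3b did not pass (edgeR, adjusted p = 0.297), and in the runs of libraries it was at -0.42, -0.56 and -0.27. The 5 cerebellum markers were lower by 0.20 to 0.24 on the log2 scale with 0 of 5 passing, and their summed level was 636 to 1023 CPM in WT and 530 to 740 in APP/PS1 mice. The excitatory neuron markers Camk2a, Neurod6 and Tbr1 were at 0.06, 0.21 and 0.15, and none of these passed (edgeR, adjusted p = 0.677, 0.0873 and 0.237). None of these markers was at 0 in any group. Their part in the glutamate gene values was not tested.

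In B6 the largest difference was that of Grm2. It had between 34.7 and 51.7 CPM in WT mice (median 39.5) and between 31.6 and 43.7 in APP/PS1 mice (median 37.5), overlapping groups, with a difference of -0.17 ± 0.056 (SE; edgeR, adjusted p = 0.388). The value was 0.00 in WSB, -0.08 in CAST and 0.03 in PWK. Grm2 lies on chromosome 9 at chr9:106643095-106656082. Of the 312 tested genes within 10 Mb of it, 45 passed in PWK, or 14.4%, against 1.87% of other genes. The share near Grm2 was above that of other genes in the other strains too. In WSB 9 passed, or 2.88% against 0.342%, in CAST 6, or 1.92% against 0.641%, and in B6 2, or 0.641% against 0.218%. Grm2 itself did not pass in PWK.

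Across the other receptor genes of B6 the sexes appeared opposed, and the 2 mice that stand apart, a transgenic female and a WT male, bear on this directly. With all mice, 5 of 27 genes were higher in APP/PS1 than in WT females and 19 of 27 in males, with medians of -0.06 and 0.04. Without these 2 mice the numbers were 15 and 15, with medians of 0.01 and 0.00. The opposition was not seen once they were left out. In WSB 17 of 27 were higher in females and 13 in males, in CAST 16 and 14, and in PWK 18 and 20.

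The 27 further genes of the pathway cover AMPA and kainate auxiliary subunits, uptake carriers, glutamate and glutamine metabolism, D-serine metabolism and the RNA editing enzyme Adarb1, and all 27 were tested. Over WT strains 25 of 27 passed the F test (84.5% of all genes). Glul, the glutamine synthetase of astrocytes, had the smallest p and was lower than B6 by -0.24 in CAST, -0.57 in PWK and -0.62 in WSB (edgeR, adjusted p = 6.9e-12, 1.95e-31 and 1.8e-34). Shisa7, an AMPA receptor auxiliary protein, was higher than B6 in PWK by 0.48, and Srr, the serine racemase that makes the NMDA co-agonist D-serine, was lower than B6 in PWK by -0.32 (edgeR, adjusted p = 3.31e-17 and 3.65e-12). Between APP/PS1 and WT mice, 3 of 27 passed in PWK (2.04% of all genes), where housing also differed, 1 in CAST (0.658%) and 0 in B6 and WSB. In PWK the AMPA auxiliary subunits Cacng8 and Cnih3 rose, by 0.14 and 0.20 (edgeR, adjusted p = 0.0217 and 0.0264), and Gls2, a glutaminase, fell by 0.12 (edgeR, adjusted p = 0.0278). Cacng8 keeps AMPA receptors at hippocampal and cortical synapses. In CAST Adarb1, which edits the Gria2 transcript, fell by 0.10 (edgeR, adjusted p = 0.00526), where Gria2 was at 0.04.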

How the data were processed

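RNA was extracted from the left hemisphere, and polyA libraries were made with a KAPA kit. The authors trimmed reads with Trimmomatic, aligned them with STAR, B6 to the reference (mm10, GRCm38) and the other strains to strain-specific genomes, and counted them with HTSeq. The deposited values are raw read counts per gene, without normalization. Its strand setting is not given in the sources used here. Between 26.6% and 34.4% of read pairs fell on no single gene.

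Symbols came from GENCODE M21, which matched 47224 of 47643 genes. Genes that reached a count of 10 in 10% of mice were kept, which is the rule the study states. It left 23702 genes here, and the study reports fewer. edgeR 4.0.16 (R 4.3.3) was fitted over all 93 mice, with TMM and a mean for each of 16 groups of strain, genotype and sex. The contrasts were averaged over the sexes. Standard errors were derived from the F statistic. CPM are TMM-scaled. Each sample is a separate mouse, and p-values measure the spread between mice. The fit was tested on simulated data. Grouping followed the sample titles. Same-numbered mice of different groups did not deviate together, with correlations between -0.0986 and 0.0761 in 45 pairs, so numbers do not pair mice.

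Every gene of the list is named, with values by mouse for the 8 with the smallest p over the wild-derived strains. Those of Grm2, Grm4, Slc17a7 and Slc17a8 were added after their values were seen. The genes and lists were chosen with earlier results of these data known. Some items are not reported here. Alternatives were DESeq2 1.42.0 size factors and its test, no count filter, library run, replicate block, single-strain and wild-derived fits, and leaving out mice.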

Additional observations from a re-analysis of the deposited data

Results flagged for a closer look

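Within groups of strain, genotype and sex, 29 of 432 tests found the highest or lowest mouse far from the others by Dixon's criterion (6.71%), where chance gives about 1 in 20. Of these, 9 came from B6 WT Male replicate 5, the lowest of its group for Gria2 at 512 CPM, Gria3 at 190.3, Gria4 at 163, Grik2 at 59.7, Grik3 at 106, Grin2a at 169, Grin2b at 392, Grm5 at 130.3 and Grm7 at 44.2 CPM. This is one of the 2 B6 mice described above.

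The other 20 were spread over many mice. High values were Gria3 at 272 CPM in B6 APP/PS1 Male replicate 1 and 277 in CAST WT Male replicate 6, Grin2a at 309 in PWK WT Female replicate 4, Grin2d at 30.4 in WSB APP/PS1 Male replicate 6 and 36.6 in PWK APP/PS1 Male replicate 6, and Grin3a at 80.5 in CAST WT Male replicate 1. Grin3b was high at 1.44 CPM in PWK WT Female replicate 2, without which its PWK difference from B6 was 0.31 and no longer passed. Grid1 was high at 78.0 CPM in B6 WT Female replicate 5, Grm2 at 50.3 in B6 WT Female replicate 3 and 51.4 in WSB WT Male replicate 4, and Slc17a8 at 7.28 in B6 WT Female replicate 2 and 6.87 in B6 APP/PS1 Male replicate 6. Low values were Gria4 at 213 CPM in CAST APP/PS1 Male replicate 5, Grik4 at 25.6 in B6 APP/PS1 Male replicate 2, Grin2b at 559.6 in CAST WT Male replicate 2, Grm8 at 15.996 in CAST APP/PS1 Female replicate 3 and Slc1a1 at 66.6 in B6 WT Female replicate 2. Slc17a6 was low at 83.9 CPM in B6 APP/PS1 Male replicate 4 and 83.6 in PWK WT Male replicate 2, and Slc17a7 at 729 in WSB WT Female replicate 1.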

How the results depend on the processing

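Of the 15 counts of genes passing, 14 stayed within 1.5 times their value under every alternative run. The exception was the APP/PS1 response in PWK, with 0 of 27 genes with all mice and 2 with the 2 B6 mice that stand apart left out. With the replicate number as a block, the counts were 22 for the strain F test, 14 for CAST against B6, 15 for PWK against B6, 13 for WSB against B6, 10 for CAST against PWK, 13 for CAST against WSB, 9 for WSB against PWK and 0 for every response, and the one gene call it ended was that of Gria3 between WSB and PWK (edgeR, adjusted p = 0.0516). The mice left out in turn were the 5 WT females of PWK and the 4 APP/PS1 females of B6. The counts then ran from 21 to 22 for the strain F test, 13 to 14 for CAST against B6, 13 to 15 for PWK against B6, 13 to 14 for WSB against B6, 9 to 11 for CAST against PWK, 13 to 13 for CAST against WSB, 8 to 12 for WSB against PWK and 0 to 0 for the responses, the sex difference and the differences in response.

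Of the 96 calls of a gene in a comparison, 82 held in every alternative and 0 changed direction where they failed. Besides those given in the text, Grid1 in the strain F test was lost without PWK WT Female replicate 1 or 2 (edgeR, adjusted p = 0.071 and 0.0735) and Slc1a1 in CAST against WSB without the count filter or with wild-derived WT mice alone (edgeR, adjusted p = 0.0564 and 0.0727). With the library run as a covariate 7 genes passed for WSB against PWK, and 5 calls were lost, those of Gria2, Gria3 and Grid1 in WSB against PWK (edgeR, adjusted p = 0.0807, 0.0525 and 0.0627) and of Gria2 and Grid1 in the strain F test (edgeR, adjusted p = 0.0549 and 0.0979). Depth limits Grin3b, at about 1 CPM, whose intervals were the widest.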
